A study of Rattus norvegicus with 6 samples.

Results

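Macrophage and complement C1q genes were followed in the maternal thyroid of the rat by RNA-seq. The group held 10 genes, taken by their symbol alone: Cd68, Csf1r, Cd163, Mrc1, C1qa, C1qb, C1qc, Lyz2, Aif1 and Tyrobp. All 10 were among the 15388 genes counted in every sample. Thyroids came from adult Sprague-Dawley rats that were either non-pregnant (NP) or in late pregnancy (LP, day 18, counted from the day of the vaginal plug), with 3 samples in each group. No agent was given, and the groups differed only in pregnancy as far as the labels say. Whole tissue was sequenced as polyA+ RNA, so that the macrophages of the gland were read together with its follicular cells, vessels and stroma. In such bulk RNA, fewer cells of a type and less RNA per cell cannot be told apart.

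Between 2752144 and 2965936 reads were counted per NP sample and between 3224104 and 3449857 per LP sample. Levels are given in CPM, counts scaled to the depth of the library after TMM scaling (a scaling of the libraries on the bulk of the genes), and 3 reads of a library, between 0.87 and 1.09 CPM before that scaling, were taken as the smallest level that can be seen. Intervals and limits from reads cover counting error only. Thyroglobulin (Tg) held between 22.9% and 24.5% of the reads of a sample, and all 11 listed markers of follicular cells passed the filter on low counts. Of these, 3 were called higher and 3 lower in LP, beside 15.3% and 11.7% of all tested genes. Tshr, the thyrotropin receptor, was among those lower (log2 fold change -0.68). Slc5a5, named after its values were seen, fell most of the 11 (-0.94). Replicates 2 and 3 did not differ detectably beyond the sampling noise of their counts in NP (chi-square 1.02 per degree of freedom) or in LP (0.995). Their mean was therefore used as 1 sample in each mean ± SD (n = 2 for each group), whereas replicate 1 differed from them in both groups (3.70 to 4.11). The study's methods give 3 rats for each group, but nothing in the labels says that samples of a group are separate animals. P-values therefore measure only the spread between samples. In the main test replicates 2 and 3 still counted as separate samples, so its standard errors, intervals and p-values may be too small. A fit with replicates 2 and 3 summed was run as an alternative. Skeletal muscle markers held between 0.00349% and 0.00914% of the reads in NP and between 0.594% and 0.623% in LP.

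Macrophages are resident phagocytes that clear dying cells and debris, present antigen and depend on signals through the receptor Csf1r. C1q is the recognition molecule of the classical complement pathway, assembled from A, B and C chains with collagen-like stalks and globular heads. Unlike most complement proteins, which the liver supplies to the plasma, C1q is made largely by macrophages and dendritic cells, and its genes are commonly used with Cd68, Csf1r and Tyrobp to mark these cells in tissue.

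No gene of the group passed the threshold in LP compared to NP. The 6 samples were compared with the quasi-likelihood test of edgeR, and a gene was called when its Benjamini-Hochberg adjusted p-value was below 0.05. A filter on low counts left 11738 genes for this test. All 10 genes passed that filter. Of these, 0 were called higher and 0 lower, against 15.3% of all tested genes called higher and 11.7% called lower. With a fold change above 2 required as well, 4.9% of all genes were higher and 0.537% lower, and again 0 of the 10. DESeq2 called 0 of the 10 too. At an unadjusted p below 0.05, edgeR's test gave 2 genes higher (C1qa and Csf1r) and 1 lower (Aif1), with 19.5% and 17.3% of all genes on these sides, and DESeq2 gave 1 gene. Every LP sample lay above every NP sample for Csf1r and C1qb and below for Aif1, which is 2 and 1 of 10, against 21.2% and 18.9% of all genes. The median log2 fold change of the 10 genes was 0.12, and 6 of them lay above 0. The median over all tested genes was -0.0089.

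**Figure D1:**
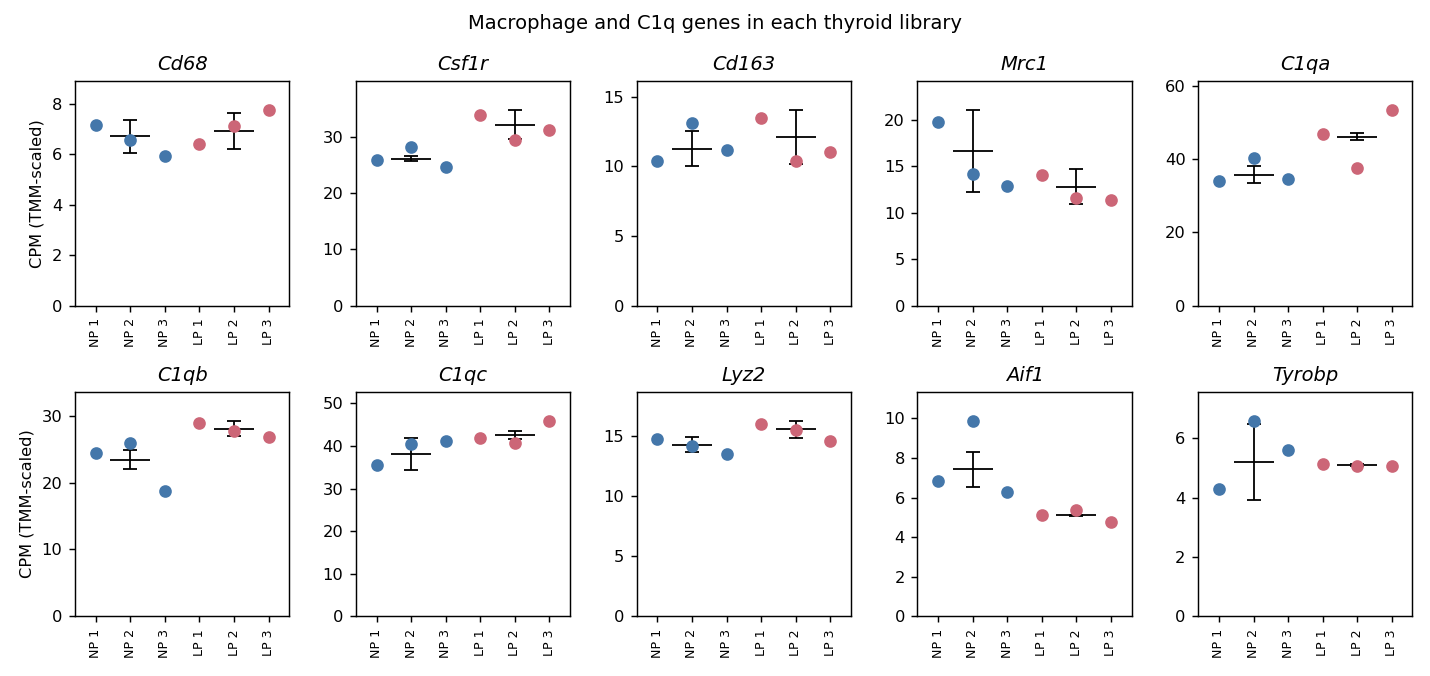
Level of each of the 10 genes (y axis, CPM after TMM scaling, from 0) in each library (x axis, NP in blue, LP in red). Points are libraries, and black lines are the group mean ± SD with replicates 2 and 3 averaged (n = 2). Groups are apart for Csf1r, C1qb and Aif1 and overlap for the other 7 genes.

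The reads on the 10 genes together summed to 183, 199.5 and 175 CPM in NP replicates 1, 2 and 3 and to 212, 190.5 and 212 CPM in LP replicates 1, 2 and 3. These sums overlapped between groups, with LP replicate 2 below NP replicate 2. LP replicates 1 and 3 lay above all NP samples. The C1q chains made up between 51.4% and 54.2% of the reads on the 10 genes in NP and between 55.5% and 59.5% in LP, without overlap between the groups. These shares rest on between 510 and 607 reads in NP and between 640 and 711 in LP. No counting interval was computed for them, so their separation is not taken as a difference between the groups.

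C1qa, the A chain, had 34.1, 40.4 and 34.6 CPM in NP and 46.8, 37.5 and 53.3 CPM in LP. LP replicate 2 was below NP replicate 2, and the other LP samples were above all NP samples. The level was 35.8 ± 2.4 CPM in NP and 46.1 ± 0.99 CPM in LP, although the averaged LP replicates 2 and 3 differed more from each other than this SD shows. Its log2 fold change was 0.33 (standard error 0.12, 95% interval 0.069 to 0.59, edgeR adjusted p = 0.0586). This gene was the closest of the 10 to the threshold, and its call turned on how the samples were treated. The edgeR adjusted p was 0.0344 with replicates 2 and 3 summed into 1 sample and 0.00745 with the replicate number as a block, but 0.201 in DESeq2. It was 0.0474 without NP replicate 2 and 0.00829 without LP replicate 2, and the log2 fold change was then 0.41 and 0.46. Without LP replicate 3 the log2 fold change was 0.20 (edgeR adjusted p = 0.303).

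C1qb, the B chain, had 24.4, 26.0 and 18.8 CPM in NP and 28.9, 27.7 and 26.8 CPM in LP. Every LP sample was above every NP sample, by less than 1 CPM between the nearest pair, and NP replicate 3 was the lowest sample. The log2 fold change was 0.27 (standard error 0.13, 95% interval -0.013 to 0.55, edgeR adjusted p = 0.157), and it was 0.13 without NP replicate 3. C1qc, the C chain, had 35.5, 40.4 and 41.2 CPM in NP and 42.0, 40.8 and 45.9 CPM in LP, with overlapping groups. Its log2 fold change was 0.13 (standard error 0.098, 95% interval -0.075 to 0.34, edgeR adjusted p = 0.375), and it was 0.071 without NP replicate 1. Intervals of the C1q chains thus end at 0.59, 0.55 and 0.34 on the log2 scale, all below a 2-fold rise.

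The chains were also compared by their share of the C1q reads within each library, which does not depend on scaling between libraries. Between 262 and 325 reads fell on the chains in NP samples and between 356 and 423 in LP samples. C1qa took between 36.3% and 37.8% in NP and between 35.4% and 42.3% in LP. The share of C1qb was between 19.9% and 26.0% in NP and between 21.3% and 26.1% in LP, and that of C1qc between 37.8% and 43.6% and between 35.7% and 38.5%. The most different shares were those of C1qc in NP replicate 3 (43.6%, 95% Wilson interval 37.9 to 49.3) and LP replicate 1 (35.7%, 31.0 to 40.7), with overlapping intervals. Overlap of the intervals of single libraries does not show that the shares are equal. A difference in the ratio of the chains between groups was not tested.

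**Figure D2:**
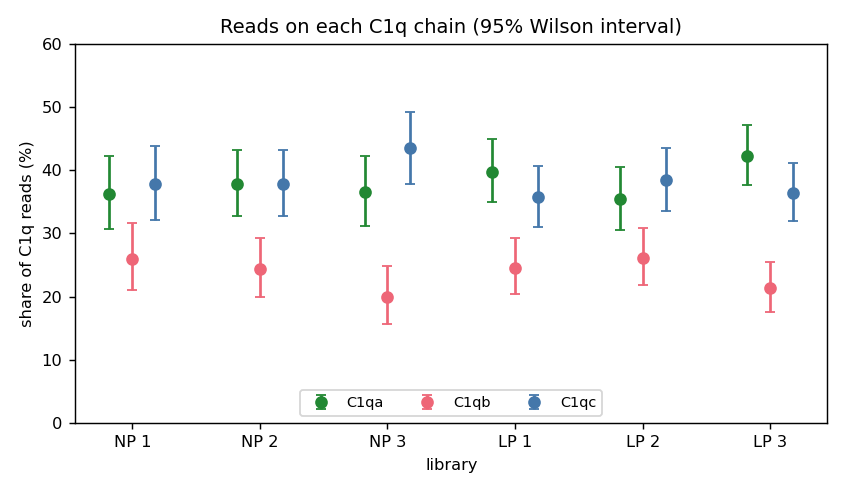
Share of the reads on C1qa, C1qb and C1qc (y axis, percent of C1q reads) in each library (x axis). Bars are 95% Wilson intervals, which cover counting error only. For each chain the intervals of the LP libraries overlap those of the NP libraries, and no share is corrected for the length of its transcript.

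The C1q genes are neighbours. In the RefSeq annotation of GRCr8, a later build than the rn5 genome on which the reads were counted, C1qc lies directly between C1qb and C1qa on chromosome 5. All 10 genes had a RefSeq entry of the same symbol. Promoter sequence from RefSeq was at hand for 7 of them, and the 250 bases before the start were searched on both strands for GAGGAA, the core letters of the PU.1 box, and for TGCTGAC, a half-site of MAF factors. PU.1 and MAF factors are regulators of macrophage genes, measured here as Spi1 and Maf, among others. GAGGAA was found for 5 of the 7 genes (Cd68, Csf1r, Mrc1, C1qb and Lyz2), against 23.3% of all promoters of this length, and TGCTGAC for 1 of the 7 (C1qa), against 3.53% of all. Sequences are shown for C1qa, which held the MAF letters, for C1qb, which held the PU.1 letters in the same gene cluster, and for Cd68, a general macrophage marker. They run 5′ to 3′ on the strand of the gene, end at the base before its start, and carry the matched letters in capitals (TTCCTC is GAGGAA read from the other strand). C1qa lies on the minus strand at chr5:154419934-154420183, C1qb on the minus strand at chr5:154407828-154408077 and Cd68 on the minus strand at chr10:54882442-54882691, all in GRCr8.
C1qa: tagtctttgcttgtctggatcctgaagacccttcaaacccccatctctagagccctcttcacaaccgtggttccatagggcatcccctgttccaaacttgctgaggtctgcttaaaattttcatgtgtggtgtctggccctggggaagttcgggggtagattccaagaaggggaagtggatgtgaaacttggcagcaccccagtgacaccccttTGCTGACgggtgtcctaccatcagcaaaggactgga
C1qb: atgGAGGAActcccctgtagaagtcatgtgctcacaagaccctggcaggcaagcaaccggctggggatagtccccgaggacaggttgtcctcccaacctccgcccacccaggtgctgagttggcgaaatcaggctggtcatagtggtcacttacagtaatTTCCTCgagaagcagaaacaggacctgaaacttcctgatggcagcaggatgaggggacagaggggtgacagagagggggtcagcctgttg
Cd68: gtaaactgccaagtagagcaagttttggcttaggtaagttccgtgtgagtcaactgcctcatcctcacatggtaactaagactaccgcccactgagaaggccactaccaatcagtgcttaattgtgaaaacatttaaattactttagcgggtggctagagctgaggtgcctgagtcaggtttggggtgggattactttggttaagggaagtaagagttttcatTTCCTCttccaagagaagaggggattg
The MAF half-site of C1qa began 36 bases before the start. Matches of C1qb to the PU.1 letters began 247 and 90 bases before the start, and that of Cd68 27 bases before it. These are matches of letters, and binding was not measured.

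Among the receptors, Csf1r, which binds the growth factors Csf1 and Il34 and keeps macrophages alive, had 25.8, 28.3 and 24.7 CPM in NP and 34.0, 29.5 and 31.3 CPM in LP. All LP samples were above all NP samples. The log2 fold change was 0.26 (standard error 0.12, 95% interval 0.018 to 0.51, edgeR adjusted p = 0.109), and between 0.20 and 0.31 with each sample left out in turn. Tyrobp (DAP12), the adaptor that carries the signal of Trem2 and related receptors, had few reads, between 12 and 20 in each sample. Its level was 4.30, 6.57 and 5.602 CPM in NP and 5.13, 5.06 and 5.06 CPM in LP, so that the LP values lay inside the range of NP. The log2 fold change was -0.12 (95% interval -0.69 to 0.45, edgeR adjusted p = 0.805), and 0.023 without NP replicate 2.

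Scavenger receptors mark the resident and alternatively activated macrophages of many tissues. Cd163, which takes up haemoglobin bound to haptoglobin, had 10.4, 13.1 and 11.2 CPM in NP and 13.5, 10.4 and 11.02 CPM in LP. Groups overlapped nearly fully, and the log2 fold change was -0.0020 (95% interval -0.41 to 0.40, edgeR adjusted p = 0.996). Its sign turned in 6 of 13 other settings, so it has no direction here. Mrc1, the mannose receptor, had 19.7, 14.1 and 12.9 CPM in NP and 14.1, 11.6 and 11.3 CPM in LP. NP replicate 1 stood highest, and LP replicate 1 lay among the other NP samples. The log2 fold change was -0.33 (95% interval -0.74 to 0.080, edgeR adjusted p = 0.241), and it ranged from -0.46 to -0.13 with each sample left out. In the RefSeq annotation Mrc1 overlaps LOC134482611 and Mir511, and reads were counted without a stated use of strand.

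Of the genes for lysosomal and secreted proteins, Cd68, a glycoprotein of the lysosomal membrane, had between 18 and 20 reads in NP and between 20 and 26 in LP, which is 7.17, 6.57 and 5.93 CPM against 6.41, 7.14 and 7.75 CPM. Its log2 fold change of 0.12 had a wide interval (95% interval -0.38 to 0.62, edgeR adjusted p = 0.777), and it was 0.045 without NP replicate 3 and 0.048 without LP replicate 3. Lyz2, lysozyme of phagocytes, had 14.7, 14.1 and 13.5 CPM in NP and 16.03, 15.5 and 14.6 CPM in LP, and only LP replicate 3 lay within the NP range. For Lyz2 the log2 fold change was 0.12 (95% interval -0.21 to 0.46, edgeR adjusted p = 0.658). Lyz2 has a neighbouring lysozyme gene in the annotation, Lyc2, and how reads shared by such copies were counted is not known, so the value is uncertain.

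Aif1 (Iba1), an actin-binding protein of activated macrophages, had the lowest log2 fold change of the 10 genes. It had 19, 30 and 19 reads in the NP samples against 16, 18 and 16 in the LP samples, or 6.81, 9.86 and 6.26 CPM against 5.13, 5.36 and 4.77 CPM. All LP samples were below all NP samples, and NP replicate 2 stood above the other NP samples. The log2 fold change was -0.59 (standard error 0.26, 95% interval -1.14 to -0.034, edgeR adjusted p = 0.112). Without NP replicate 2 it was -0.37 (edgeR adjusted p = 0.438). With so few reads, a halving of Aif1 lies within the interval.

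**Figure D3:**
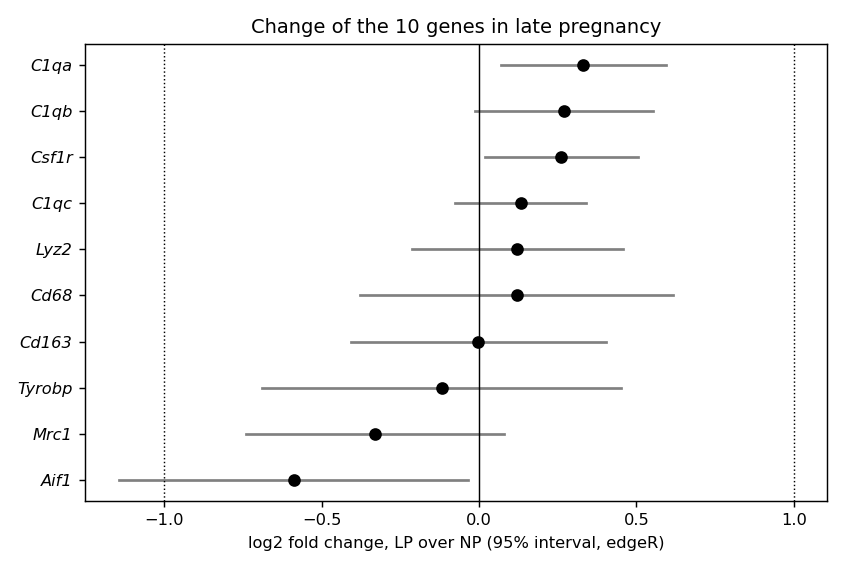
Log2 fold change of each of the 10 genes in LP over NP (x axis), from -0.59 for Aif1 to 0.33 for C1qa. Points are edgeR estimates with 95% intervals, the solid line marks no change and the dotted lines a 2-fold change; an interval that leaves out 0 is before adjustment, and no gene passed the adjusted threshold.

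Other genes of macrophages were then examined as a list. Of 45 listed, 42 were in the files and 28 passed the filter. Of these 4 rose, 2 fell and 22 did not pass the test, and the median log2 fold change was 0.10, against -0.0089 over all genes. The shares called stand beside 15.3% and 11.7% of all genes. Ncf1, a cytosolic subunit of the phagocyte NADPH oxidase, rose from 7.65 ± 0.34 CPM to 16.6 ± 2.2 CPM (SD, n = 2) (log2 fold change 1.18, standard error 0.19, edgeR adjusted p = 0.000102), and was the 1 gene of the list above a 2-fold change. Stab1 (stabilin 1, a scavenger receptor of macrophages and sinusoidal endothelium) had 93, 105 and 94 reads in the NP samples against 159, 185 and 161 in the LP samples. It rose by 0.64 on the log2 scale (standard error 0.097, edgeR adjusted p = 6.91e-05). Cyth4 rose by 0.68 and Hmox1, the haem-degrading enzyme, by 0.61 (edgeR adjusted p = 0.0143 and 0.0198). Cyth4 lost its call without NP replicate 2 (edgeR adjusted p = 0.0785) and in DESeq2 (adjusted p = 0.125). Hmox1 lost it in DESeq2 (adjusted p = 0.145), with replicates 2 and 3 summed and without NP replicate 1, NP replicate 3 or LP replicate 3, at a highest edgeR adjusted p of 0.114. Its log2 fold change was between 0.48 and 0.61 in these settings.

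Lyve1, a hyaluronan receptor of lymphatic vessels and of a subset of resident macrophages, had 42, 33 and 38 reads in the NP samples against 15, 26 and 25 in the LP samples. It fell by 0.92 on the log2 scale (standard error 0.23, edgeR adjusted p = 0.00566), with all LP samples below all NP samples. Clec10a, a lectin of macrophages and dendritic cells, fell by 0.53 (edgeR adjusted p = 0.0406), but its adjusted p exceeded the threshold in 5 of the 6 fits that left out a sample, all except that without NP replicate 2, at up to 0.138, and also with replicates 2 and 3 summed (0.0795) and in DESeq2 (0.238). Widely used markers showed values on both sides of 0. Adgre1 (F4/80) had 16, 17 and 17 reads in the NP samples against 13, 17 and 23 in the LP samples, and Itgam (CD11b) 13, 8 and 3 against 11, 14 and 4. Cd14, the lipopolysaccharide co-receptor, had a log2 fold change of -0.048 (edgeR adjusted p = 0.922). Siglec1, a sialic acid receptor of resident macrophages, had 0.80 (standard error 0.34, edgeR adjusted p = 0.093) on only 5, 12 and 14 reads in the NP samples against 23, 15 and 22 in the LP samples. In CPM the groups of Siglec1 overlapped, with LP replicate 2 (4.46) below NP replicate 3 (4.61).

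Ligands, adaptors and regulators around Csf1r and Tyrobp formed another list, of which 21 of 23 were in the files and 16 were tested. In this list 3 genes rose, 2 fell and 11 did not pass the test, beside 15.3% of all genes called higher and 11.7% called lower, and the median log2 fold change was 0.063. Of the ligands of Csf1r, Csf1 had 48, 49 and 41 reads in the NP samples against 65, 67 and 74 in the LP samples and rose by 0.43 on the log2 scale (standard error 0.15, edgeR adjusted p = 0.0421). That call held without NP replicate 1 alone among the fits that left out a sample, and the adjusted p was otherwise between 0.0633 and 0.18 in these. It was lost too without a filter, with replicates 2 and 3 summed and in DESeq2 (adjusted p = 0.0542, 0.0976 and 0.262). Il34, the other ligand, had a log2 fold change of -0.28 (edgeR adjusted p = 0.331), and Trem2, the receptor that pairs with Tyrobp, had between 3 and 7 reads per sample and did not pass the filter. Syk, the kinase downstream of Tyrobp and of Fc receptors, had 109, 118 and 110 reads in the NP samples against 70, 92 and 94 in the LP samples. It fell by 0.55 (standard error 0.11, edgeR adjusted p = 0.00147) and stayed below the threshold in each of 14 other settings.

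Transcription factors in that list were called in both directions. Irf8, a regulator of monocyte and dendritic cell development, had 482, 460 and 461 reads in the NP samples against 257, 293 and 267 in the LP samples. It fell from 162 ± 15 CPM to 82.9 ± 0.69 CPM (log2 fold change -0.93, standard error 0.068, edgeR adjusted p = 8.45e-09). The 10 macrophage and C1q genes together summed to between 175 and 199.5 CPM in NP. Which cells of the gland gave the reads of Irf8 and of Syk was not tested. Spi1, which encodes PU.1, had 13, 10 and 12 reads in the NP samples against 13, 14 and 27 in the LP samples (log2 fold change 0.47, edgeR adjusted p = 0.338). Maf rose by 0.35 on the log2 scale (edgeR adjusted p = 0.0419) and Cebpa by 0.48 (edgeR adjusted p = 0.0285). In the fits that left out a sample, Maf held its call only without LP replicate 1, with an adjusted p of up to 0.132 in the others, and Cebpa only without NP replicate 3 or LP replicate 2, with up to 0.105. In DESeq2 neither was called (adjusted p = 0.292 and 0.159), and Maf was not called either without a filter or with replicates 2 and 3 summed, with or without the block (edgeR adjusted p between 0.0536 and 0.0989).

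Complement genes other than C1q were the next list. Of 38 listed, 31 were in the files and 24 were tested. Of these 8 rose and 4 fell, beside 15.3% and 11.7% of all genes, and the median log2 fold change was 0.19. C1r and C1s, the proteases that bind C1q to form the C1 complex, both rose. C1r had 201, 265 and 245 reads in the NP samples against 294, 345 and 338 in the LP samples (log2 fold change 0.31, standard error 0.074, edgeR adjusted p = 0.00429). C1s had 176, 224 and 197 reads in the NP samples against 320, 352 and 418 in the LP samples (log2 fold change 0.72, standard error 0.085, edgeR adjusted p = 4.25e-06). Serping1, the inhibitor of the C1 proteases, rose from 59.1 ± 2.1 CPM to 89.8 ± 6.8 CPM (log2 fold change 0.59, edgeR adjusted p = 8.99e-06). All LP samples were above all NP samples for these partners of C1q, and each call held in the 14 other settings.

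Further along the cascade, C3, the central component, rose from 4.75 ± 1.7 CPM to 12.9 ± 3.3 CPM (log2 fold change 1.396, edgeR adjusted p = 0.000379). C4b rose by 1.05 on the log2 scale (edgeR adjusted p = 0.000765), while C4a, added after its values were seen, had 0.46 (edgeR adjusted p = 0.216). These are near-identical copies whose reads cannot be cleanly assigned, so both values are uncertain. C6, a component of the membrane attack complex, rose by 1.62 on 5, 7 and 5 reads in the NP samples against 16, 19 and 24 in the LP samples (edgeR adjusted p = 0.00132), and Cd55, a membrane inhibitor of complement, by 1.43 (edgeR adjusted p = 0.0018). Masp1, a protease of the lectin pathway, had 10, 16 and 15 reads in the NP samples against 112, 107 and 150 in the LP samples, and rose by 3.01 (standard error 0.20, edgeR adjusted p = 3.1e-09). Cfd (adipsin) had 0.099 (edgeR adjusted p = 0.55).

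Calr, a chaperone of the endoplasmic reticulum that also binds C1q, fell by 0.35 on the log2 scale (edgeR adjusted p = 1.21e-07), and Cr1l, the rodent inhibitor Crry, by 0.29 (edgeR adjusted p = 0.00697). C7, a component of the membrane attack complex, fell by 0.18 (edgeR adjusted p = 0.034). It lost its call without NP replicate 3, LP replicate 1, LP replicate 2 or LP replicate 3, with an adjusted p of up to 0.158, and also with replicates 2 and 3 summed (0.123) and in DESeq2 (0.122).

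**Figure D4:**
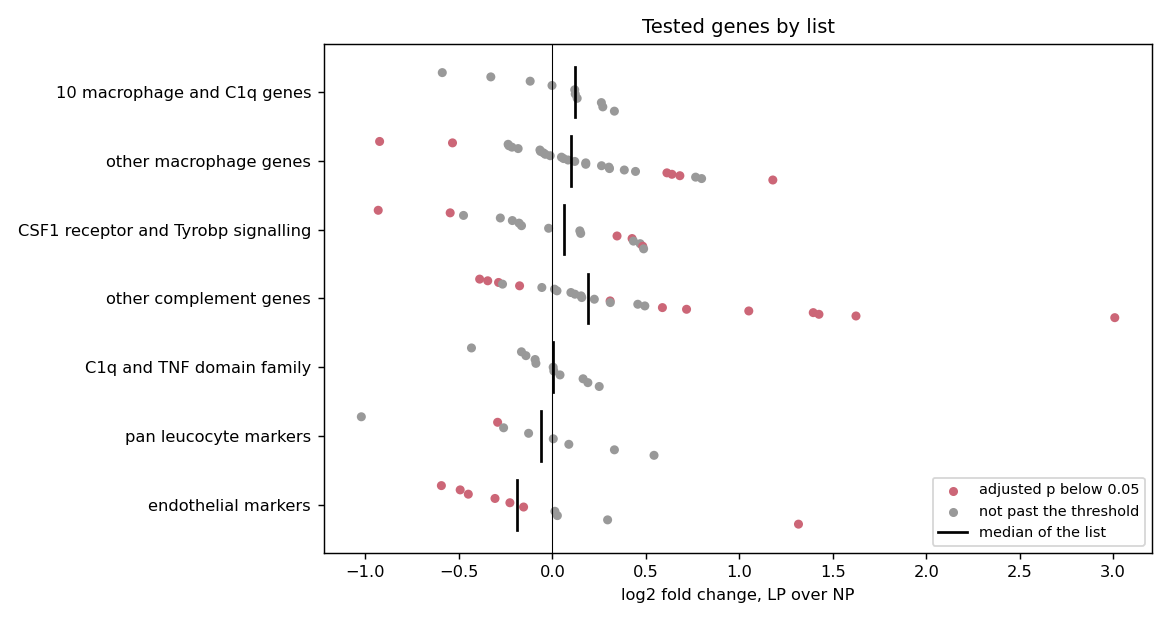
Log2 fold change in LP over NP (x axis) of the tested genes in each list (y axis), with 1 point per gene. Red points passed the adjusted threshold of 0.05 and the black bar is the median of the list; none of the 10 macrophage and C1q genes is red, while 12 of 24 other complement genes are.

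Ptprc (CD45), the surface phosphatase of all leucocytes, had 20, 18 and 17 reads in the NP samples against 21, 26 and 30 in the LP samples (log2 fold change 0.33, standard error 0.24, edgeR adjusted p = 0.35). In CPM its groups overlapped, with NP replicate 1 (7.17) above LP replicate 1 (6.73). Of 8 tested pan leucocyte markers 0 rose and 1 fell, Cd48, by 0.29 (edgeR adjusted p = 0.00691), beside 11.7% of all genes called lower. At an unadjusted p below 0.05, 1 gene was higher and 2 lower, beside 19.5% and 17.3% of all genes. DESeq2 called 0 of the 8. All 10 listed markers, tested or not, summed to between 156 and 182 CPM in NP and between 148 and 160 CPM in LP. Cd48 alone gave between 66.2 and 69.4 CPM of this in NP and between 52.7 and 58.7 CPM in LP.

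Markers of some other cell types also differed between the groups. Of 15 tested skeletal muscle markers 13 rose. The 17 muscle markers counted, tested or not, summed to between 34.4 and 89.1 CPM in NP and between 6093 and 6440 CPM in LP. Fibroblast markers, of a cell type that makes C1r, C1s and Serping1, summed to between 1451 and 2390 CPM in NP and between 1743 and 2708 CPM in LP, with 1 of 8 rising and 1 falling. Endothelial markers, of a cell type that can express Stab1 and, in lymphatics, Lyve1, summed to between 1337 and 1398 CPM in NP and between 1155 and 1178 CPM in LP, with 6 of 10 falling and 1 rising. Airway epithelium markers summed to between 12.6 and 17.5 CPM in NP and between 28 and 31.5 CPM in LP, and 3 of 4 tested rose. These counts stand beside 15.3% of all genes called higher and 11.7% called lower, which the fibroblast markers were close to. None of the 15388 genes counted was at 0 in all samples, so the same holds for these markers and says nothing of the cell types. Of the listed markers 17 of 22 of muscle, 9 of 9 of fibroblasts, 10 of 11 of endothelium and 7 of 9 of airway were among the genes counted. The part of these cell types in the changes of the macrophage and complement genes was not tested. With muscle markers and Tg left out of the normalization, the log2 fold change of C1qa was 0.34 (edgeR adjusted p = 0.0546), and 0 of the 10 genes were called.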

How the data were processed

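Total RNA of NP and LP thyroids was sequenced as polyA+ libraries. In the study's methods TopHat (1.4.0 per the labels) aligned them to rn5, and the authors deposited the counts that HTSeq gave for each Ensembl model, as whole numbers without normalization. The counts were tested in R 4.3.3 with edgeR 4.0.16 (glmQLFit and glmQLFTest, TMM factors, filterByExpr with its minimum count of 10). P-values were adjusted by the method of Benjamini and Hochberg across the whole table, and only rows of interest are printed. The standard error is the log2 fold change over the square root of F, and intervals use the degrees of freedom of the fit. DESeq2 1.42.0 served as an alternative. The steps were tested on simulated counts. The labels number the samples 1 to 3 in both groups, and deviations from the group means correlated between samples of the same number (0.483, 0.216 and 0.183 across genes), as they also did between replicates 2 and 3 of different groups (0.207 and 0.209). These values set replicate 1 apart from replicates 2 and 3 and do not show that equal numbers pair replicates 2 and 3. An alternative with the replicate number as a block was run all the same, so its p-values rest on an assumed pairing.

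The 10 genes, the lists and the motifs were chosen with earlier results of these data known. Named in the text are all 10, a set of fixed genes of each pathway list, and up to 4 called genes per direction with the largest change; the few others are marked in the text as added later. Promoters are those of RefSeq (GRCr8), matched by symbol. Alternatives were other size factors, other filters, other thresholds, DESeq2, the replicate block, replicates 2 and 3 summed, and each sample left out. A few listed genes are counted within their lists but not reported here by name.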

Additional observations from a re-analysis of the deposited data

How the results depend on the processing

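Of the 10 genes, 0 were called higher, and 1 (C1qa) with the replicate block, with replicates 2 and 3 summed and with both; leaving out each sample gave 0 to 1. None was called lower in any setting run. Of 134 values of the 10 genes under other settings, 122 kept their direction and their side of the threshold, 5 passed it (all C1qa) and 7 turned. These were Cd163 without muscle markers and Tg in the normalization (0.0036), in DESeq2 (0.0027), with replicates 2 and 3 summed (0.025) and without NP replicate 2, LP replicate 2 or LP replicate 3 (0.093, 0.071 and 0.031), and Tyrobp without NP replicate 2 (0.023). With each sample left out Cd163 ranged from -0.12 to 0.093 and Tyrobp from -0.26 to 0.023. The block changed no other call of the 10 genes.

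Other macrophage genes that rose were 4, against 1 with a mean of at least 50 reads, 2 in DESeq2, 1 above 2-fold, 2 at an adjusted p below 0.01, 5 with the replicate block and 3 to 5 with each sample left out. Those that fell were 2, against 0 with the mean of 50 reads, 1 in DESeq2, 1 with replicates 2 and 3 summed, 0 above 2-fold, 1 at 0.01 and 1 to 2. In the list of Csf1r and Tyrobp signalling 3 rose, against 1 without a filter, 0 in DESeq2, 1 with replicates summed, 0 above 2-fold, 0 at 0.01 and 0 to 1, and 2 fell, against 0 above 2-fold and 3 with the replicate block. Of the other complement genes 8 rose, against 5 with the mean of 50 reads, 5 above 2-fold, 9 with the replicate block and 10 with the block and replicates summed, and 4 fell, against 2 in DESeq2, 2 with replicates summed, 0 above 2-fold, 2 at 0.01 and 2 to 3. The mean of 50 reads left 4 of the 10 genes to test. The causes of the other differences were not tested. Over all genes 3168 were called, 3784 with the block, 2541 with replicates summed and 1922 in DESeq2, and the share of higher calls was between 54.1% and 63.4%. Depth limits Tyrobp, Cd68 and Aif1 most, with 12 to 30 reads per sample.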

Other observations

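Other immune cells of the thyroid were read at low depth. Of 15 T and NK cell markers in the files 1 passed the filter and was not called, and their summed level was between 15.8 and 17.6 CPM in NP and between 10.1 and 11.5 CPM in LP. B and plasma cell markers summed to between 16.4 and 17.5 CPM in NP and between 17.6 and 19.9 CPM in LP, again with 1 gene tested and not called. That gene, Cr2, which the complement list also holds, gave between 14.7 and 18.3 CPM of these sums, and the other 6 had at most 3 reads in any sample. Mast cell markers, with 6 genes tested, summed to between 41.6 and 47.1 CPM in NP and between 45.5 and 50.6 CPM in LP. Neutrophil and monocyte markers summed to between 5.38 and 11.5 CPM in NP and between 8.66 and 14.6 CPM in LP, and dendritic cell markers to between 24.4 and 28.3 CPM and between 19.96 and 23.8 CPM. In these lists edgeR's test called 0 genes, with 0 at an unadjusted p below 0.05 and 0 called by DESeq2. Only 1 neutrophil and monocyte gene and 2 dendritic cell genes were tested, so few calls were possible outside the mast cell list. Of all tested genes 15.3% were called higher and 11.7% lower, and 19.5% and 17.3% lay below that unadjusted p. Summed levels of the T and NK, the B and plasma and the dendritic cell markers did not overlap between groups. Differences in these sums were not tested.

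The family of proteins that share the globular head of C1q, such as the C1q and TNF related proteins, the cerebellins and adiponectin formed a list of its own. Of 11 tested genes edgeR called 0 and DESeq2 0, and 1 was lower at an unadjusted p below 0.05 (Mmrn1, multimerin 1, named after its values were seen, log2 fold change -0.43, edgeR adjusted p = 0.0845). Of all tested genes edgeR called 15.3% higher and 11.7% lower, and 17.3% were lower at that unadjusted p. Mmrn1 is therefore not read as a change of the family. The median log2 fold change of the 11 genes was 0.0043.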
